A study of Mus musculus with 8 samples.

Results

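The genes described here are 8 genes of the smooth muscle contractile apparatus (Acta2, Tagln, Cnn1, Myh11, Smtn, Mylk, Lmod1 and Des) and Prdm6, a PR-domain gene known from smooth muscle precursors. They were found by the gene names in the scanner files, which gave 11 probes of 55583 and 9 of 34737 gene names. The study compared wild-type mouse embryonic stem (ES) cells with ES cells carrying 1 copy of the R141C allele of Nkx2-5 (written Nkx25 in the labels), a heart transcription factor of the homeobox class. Each genotype was sampled as undifferentiated cells at day 0 and again at day 6 of differentiation toward cardiac progenitors, through embryoid bodies formed without LIF and plated on gelatin for the last day. Every one of the 4 groups had 2 biological replicates, and each culture was measured on 1 single-colour Agilent array. The labels name neither a clone nor an independent second line for either genotype, so genotype here means the cells used. The probe for Nkx2-5 does not show the point mutation; its log2 signal was 1.93 and 1.79 in wild type and 1.53 and 1.58 in R141C at day 6. At day 0 it was -1.27 and -2.02 in wild type and 1.84 and -0.77 in R141C, so 1 undifferentiated R141C culture stood at the day 6 level; the day 0 groups were apart by 2.18 ± 0.76 (SE) and did not pass in limma (adjusted p = 1).

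Smooth muscle shortens when Mylk, the myosin light chain kinase, phosphorylates the light chains of myosin, whose heavy chain is encoded by Myh11, and myosin then pulls on filaments of smooth muscle alpha-actin (Acta2). Calponin (Cnn1), transgelin (Tagln) and smoothelin (Smtn) bind these actin filaments, leiomodin 1 (Lmod1) nucleates them, and desmin (Des) forms the intermediate filaments of all muscle types. Most of these genes are targets of serum response factor (SRF), which binds CArG boxes and is helped by myocardin and its relatives. Several are also expressed outside smooth muscle, for example in early cardiac muscle and in cells with prominent stress fibres. Prdm6 is known as a nuclear repressor in vascular smooth muscle and its precursors, where it has been linked to holding back contractile genes.

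The members were chosen by their log2 signals on these same arrays, with earlier results known, and the record does not name the comparison used. Their levels and differences are therefore descriptions, and the share of all genes passing the same threshold stands beside the counts of genes passing between days. Log2 signals are given on a scale on which the 75th percentile of each array is 0, always with replicate 1 before replicate 2, and levels are compared only within a gene. The arrays had 55.8% to 70.5% of their probes well above background, and replicate arrays correlated across genes at 0.9819 to 0.9939. All arrays lay on 1 slide, with day 0 in 1 column, day 6 in the other and wild type above R141C, so slide position cannot be told apart from the groups. In cultures of mixed cells, fewer cells of a type and less RNA per cell cannot be told apart.

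The promoter windows of 6 of the 9 members were matched in the RefSeq table of GRCm38.p6. Those of Acta2, Cnn1 and Des are shown because SRF and its CArG boxes are the textbook route to these genes and because the 3 genes behaved differently on the arrays. Each is the 250 bases before the annotated start, 5′ to 3′ on the gene's strand, with CArG-like boxes in capitals.
Acta2 (chr19:34255374-34255623, minus strand): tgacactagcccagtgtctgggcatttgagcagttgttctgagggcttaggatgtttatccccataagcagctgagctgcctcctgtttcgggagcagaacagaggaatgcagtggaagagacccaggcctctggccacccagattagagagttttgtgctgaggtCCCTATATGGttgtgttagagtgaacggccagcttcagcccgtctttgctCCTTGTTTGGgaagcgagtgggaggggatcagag
Cnn1 (chr9:22099003-22099252, plus strand): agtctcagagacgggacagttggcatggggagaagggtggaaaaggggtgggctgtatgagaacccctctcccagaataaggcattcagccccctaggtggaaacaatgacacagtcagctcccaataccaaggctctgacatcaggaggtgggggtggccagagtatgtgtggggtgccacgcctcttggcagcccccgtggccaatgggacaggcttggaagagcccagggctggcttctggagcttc
Des (chr1:75360042-75360291, plus strand): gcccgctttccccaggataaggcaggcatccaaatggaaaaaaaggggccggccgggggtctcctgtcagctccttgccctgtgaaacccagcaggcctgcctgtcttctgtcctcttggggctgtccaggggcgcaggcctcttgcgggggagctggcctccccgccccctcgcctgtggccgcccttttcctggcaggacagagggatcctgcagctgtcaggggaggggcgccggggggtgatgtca

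No exact CArG box was found in any of the 6 windows, against 1.47% of the 32851 windows in the table. A looser search, chosen after that result, allowed 1 of the 6 inner bases to be other than A or T, and reads the same on both strands. It matched in Acta2 alone among the 6, at -84 to -75 (CCCTATATGG) and at -34 to -25 (CCTTGTTTGG) from the start. At least 1 such match was present in 8.59% of all windows and 2 or more in 0.67%. Exact boxes were more frequent in 3 lists described below, which share some genes. They were present in 14.8% of 27 windows of other smooth muscle genes, 21.1% of 19 of relatives and 15.4% of 13 of cardiac markers. The looser search matched in 18.5%, 26.3% and 30.8% of these windows. A match describes letters in a short window, and no match says nothing of SRF binding elsewhere at the gene.

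Of the 8 contractile members, 6 (Acta2, Tagln, Cnn1, Smtn, Mylk and Des) were well above background on all 8 arrays, undifferentiated cells included. The others, which are among the genes most restricted to mature smooth muscle, were not: Myh11 was above background on 4 of the 8 arrays and Lmod1 on 2. The list is thus named for what its genes encode and not for a cell type shown to be in the cultures. Prdm6 was above background on 5 of the 8 arrays, namely all 4 at day 6 and 1 of 4 at day 0. The filter for testing kept 8 of the 9 members and left out Lmod1.

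**Figure D1:**
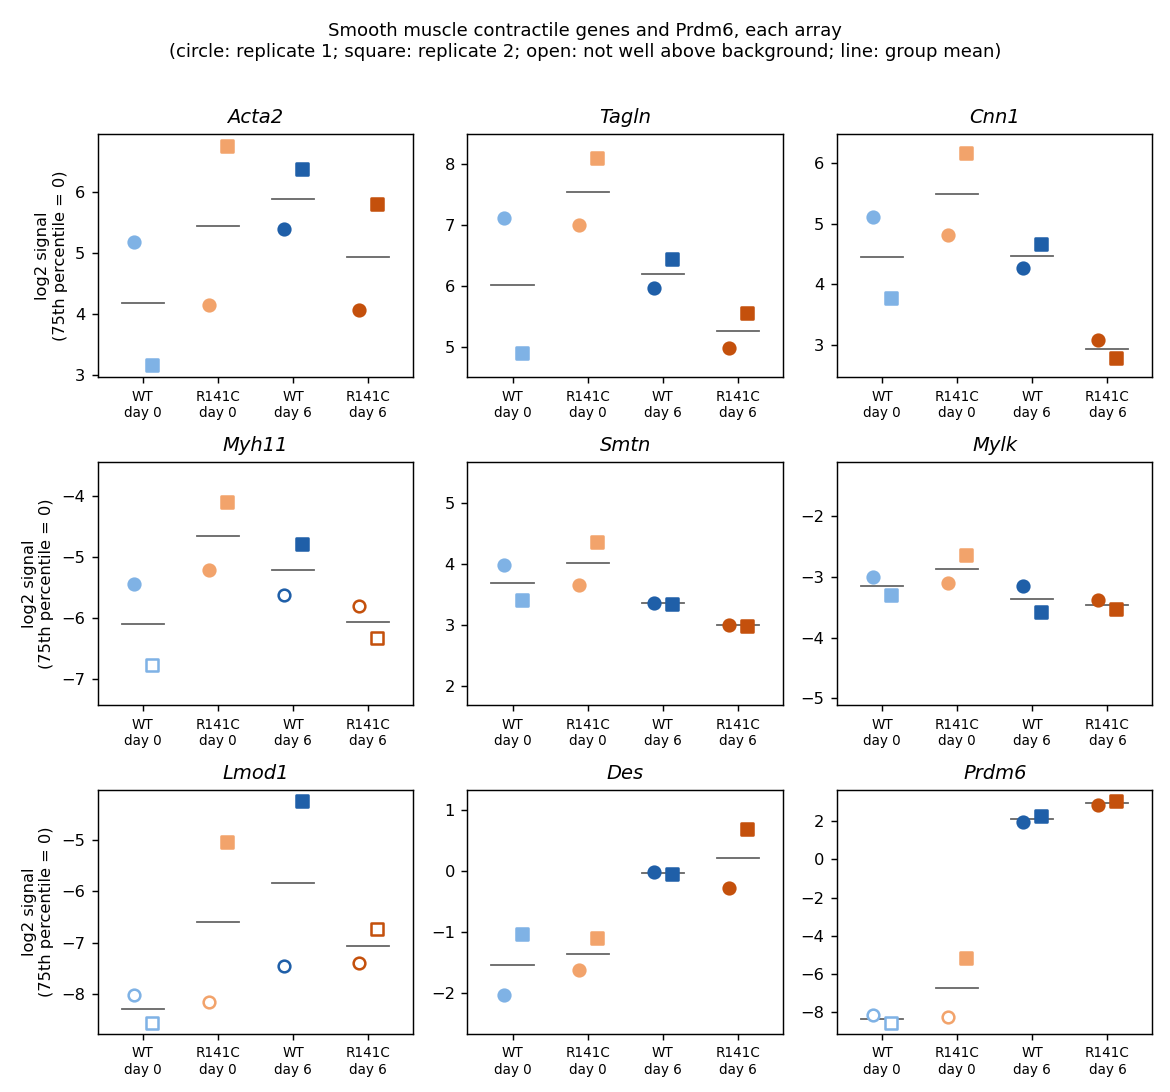
Log2 signal of each of the 9 members on each array (vertical axes, 75th percentile of the array = 0) in the 4 groups, with circles for replicate 1, squares for replicate 2, open symbols for probes not well above background and lines for group means. Prdm6 lies between 1.94 and 3.04 on the 4 day 6 arrays and at -5.18 or below on the day 0 arrays, while most contractile genes spread widely at day 0.

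Prdm6 showed the largest difference between days of any member. Its probe (A_55_P2043612, chromosome 18, 53735413 to 53735472 on mm9) read -8.15 and -8.55 in wild type at day 0, both not well above background, and 1.94 and 2.27 at day 6. In R141C it read -8.23, not above background, and -5.18, above background, at day 0, and 2.85 and 3.04 at day 6. The days did not overlap in either genotype. Prdm6 entered the test through the day 6 groups alone, where it was high. Its adjusted p-values between days are therefore a description. In wild type, Prdm6 rose at least 377-fold (adjusted p = 0.00077 in limma), a bound taken against the lowest signals above background on the day 0 arrays. In R141C it rose 804-fold (adjusted p = 0.00151 in limma), with 1 of 2 day 0 arrays above background, so that fold is imprecise. Under normexp background correction the log2 differences were 6.22 in wild type and 6.79 in R141C in place of 10.45 and 9.65. The wild-type value is below the bound of 377-fold, which therefore holds only on the scale without that correction.

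The R141C cultures held more Prdm6 signal than the wild-type cultures at day 6. The group means were 2.94 ± 0.13 and 2.11 ± 0.23 (SD, n = 2), a difference of 0.84 ± 0.86 (SE from limma) or 1.79-fold. The groups did not overlap, as was the case, in the same direction, for 27.8% of the 25892 genes tested. The difference was of the size of its standard error, and the pooled spread behind that error includes the R141C day 0 pair, which was 3.05 apart. At day 0 the difference was 1.64 ± 0.86 (SE), and it rested on the 1 R141C array above background: without that array it was 0.11.

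The chromosomal neighbours of Prdm6 differed less between days. Of 10 features tested with probes within 1 Mb on the same chromosome, 6 had a gene symbol. Ppic, a cyclophilin, lay at -169 kb (a minus sign marks lower coordinates) and rose by 1.87 ± 0.32 in wild type and 2.35 ± 0.32 in R141C (SE, log2, adjusted p = 0.00835 and 0.0056 in limma). Snx2, Snx24, Cep120 and Csnk1g3 lay at -355, -185, 106 and 380 kb, and none of them passed in either genotype, with log2 differences of -0.32 to 0.71.

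Sncaip, which encodes a partner of alpha-synuclein, lay at -660 kb and was the neighbour that parted the genotypes. It read -5.42 and -5.15 in wild type and -4.83 and -4.68 in R141C at day 0. At day 6 it read -1.42 and -1.49 in wild type but -3.65 and -3.77 in R141C. All 4 groups were apart from each other, and at day 6 R141C was 4.78-fold lower (log2 difference -2.26 ± 0.19, SE, adjusted p = 0.0293 in limma). The genotype effect at day 6 minus that at day 0 was -2.78 for Sncaip and did not pass (adjusted p = 0.138 in limma). Of the 4 features without a symbol, 1 fell in both genotypes (A_55_P2124183, -1.41 and -1.28, adjusted p = 0.0133 and 0.0258 in limma).

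**Figure D2:**
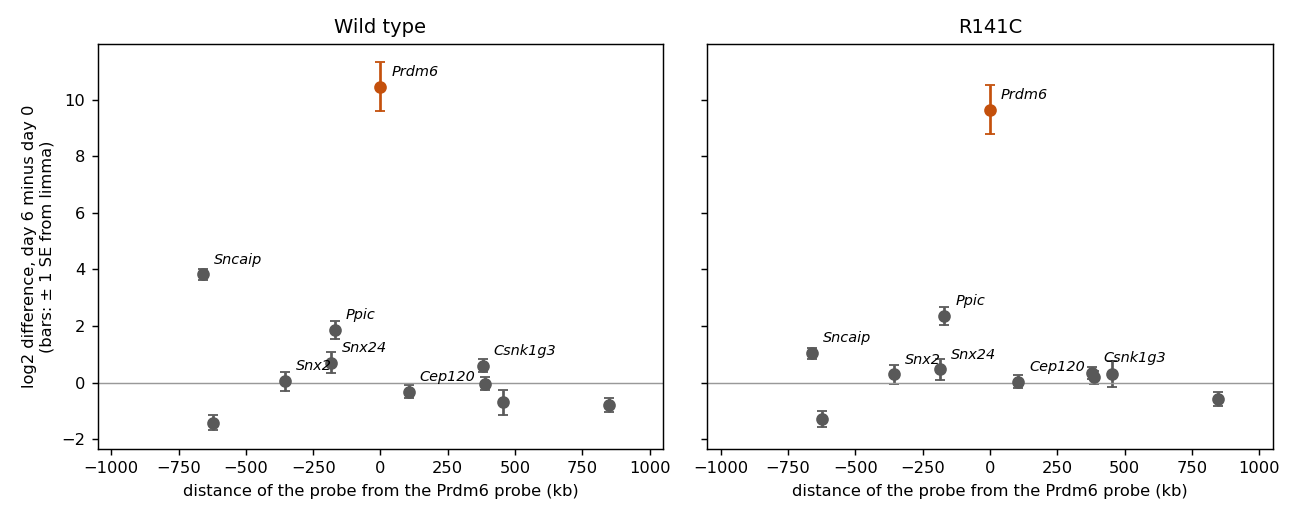
Log2 difference of day 6 from day 0 (vertical axes, bars ± 1 SE from limma) for Prdm6 and the 10 tested features within 1 Mb, against the distance of each probe from the Prdm6 probe in kb, in wild type (left) and R141C (right). Prdm6 stands at 10.45 and 9.65, and Sncaip at 3.83 in wild type and 1.04 in R141C.

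Many genes shared the pattern of Prdm6 over the 8 arrays, which is in the main a difference between days. Pearson's r was above 0.95 for 829 of 17684 genes with a symbol, and the 5 highest were Maml3 (0.998), Gucy1b1 (0.998), Zfp652 (0.997), Cd99l2 (0.997) and Bmper (0.996). Maml3 is a coactivator of Notch signalling, Gucy1b1 a subunit of the nitric oxide receptor guanylyl cyclase, and Bmper a secreted modulator of BMP signalling. These values describe 8 arrays in 4 groups and carry no test. Since 3 of the 8 Prdm6 readings were not above background, the order among these genes is not resolved.

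Among the other members of the PRDM family, 13 of 14 were tested. In each genotype 1 rose and 1 fell from day 0 to day 6, which is a share no higher than the 24% and 15.6% of all genes that passed in wild type and R141C. Prdm1, known from primordial germ cells and early lineage choices, rose by 2.22 in wild type and 1.60 in R141C on the log2 scale (adjusted p = 0.00906 and 0.036 in limma). Prdm12, known from sensory neurons, fell at least 1.39-fold and at least 1.19-fold (adjusted p = 0.0103 and 0.0436 in limma), with no day 6 array above background. None of the 13 passed between genotypes at either day.

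The actin filament genes did not share this course. Acta2 (probe A_52_P420504, chromosome 19, 34316060 to 34316119 on mm9, 10 spots per array) read 5.18 and 3.17 in wild type at day 0 and 5.40 and 6.37 at day 6. In R141C it read 4.14 and 6.76 at day 0 and 4.06 and 5.80 at day 6. The wild-type day 6 arrays were both above their day 0 arrays, whereas the R141C days overlapped. Replicate cultures differed by up to 2.62, while the spots of 1 array had an SD of 0.0251 to 0.0726, so the scatter lay between cultures or arrays and not between spots. The difference of R141C from wild type was 1.27 ± 1.07 at day 0 and -0.95 ± 1.07 at day 6 (SE from limma), with overlap on both days.

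On chromosome 19, where Acta2 lies, the median of 600 genes stood 0.34 and 0.33 above its mean over the arrays on the replicate 1 arrays of R141C at day 0 and day 6, and at -0.14 to -0.07 on the other 6. With the median of each chromosome removed, the differences for Acta2 were 1.09 and -1.20. The median of 988 genes on chromosome 1, where Des and Lmod1 lie, was 0.26 and 0.20 on the same R141C arrays. On the other arrays it was -0.22 to 0.16. With chromosome medians removed, Des differed between days by 1.65 in wild type and 1.53 in R141C.

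Tagln and Cnn1, both on chromosome 9 (probes A_51_P450527, 45738097 to 45738156, and A_51_P350817, 21913058 to 21913117, on mm9), had closer replicates at day 6 than at day 0. Tagln read 7.11 and 4.90 in wild type and 6.99 and 8.10 in R141C at day 0. Its day 6 readings were 5.95 and 6.44 in wild type and 4.98 and 5.54 in R141C. Both R141C arrays were therefore below both wild-type arrays at day 6, a difference of -0.94 ± 0.73 (SE, 1.91-fold lower), while at day 0 the genotypes overlapped around a difference of 1.54 ± 0.73.

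Cnn1 had the widest gap between genotypes at day 6 among the contractile members tested. It read 4.27 and 4.66 in wild type and 3.08 and 2.80 in R141C, after 5.11 and 3.78 in wild type and 4.82 and 6.16 in R141C at day 0. The day 6 groups were apart by -1.53 ± 0.56 (SE, 2.88-fold lower), and the day 0 groups overlapped around 1.04 ± 0.56. Within R141C, Cnn1 fell by 2.55 on the log2 scale from day 0 to day 6 (adjusted p = 0.0275 in limma), and in wild type the difference was 0.02. Cnn1 no longer passed in limma without R141C day 0 replicate 2 (-1.88, adjusted p = 0.102), nor without R141C day 6 replicate 1 (adjusted p = 0.0812) or replicate 2 (0.098), nor without either wild-type day 6 array (0.0528 each).

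Smoothelin was measured by 2 probes that gave the same signs in every comparison. The brighter one (A_55_P2065824, chromosome 11, 3417530 to 3417589 on mm9) read 3.98 and 3.41 in wild type and 3.66 and 4.37 in R141C at day 0. By day 6 the readings were 3.36 and 3.35 in wild type and 3.00 and 2.99 in R141C. All day 6 readings were below all day 0 readings. The day 6 pairs were 0.01 apart within each genotype and did not overlap, with a difference of -0.36 ± 0.30 (SE) from the pooled spread, which the wider day 0 pairs set.

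Myh11 and Mylk encode the motor and the kinase that activates it. Myh11 (A_55_P1988531, chromosome 16, 14202190 to 14202249 on mm9) read -5.43 and, not above background, -6.77 in wild type at day 0, and -5.22 and -4.10 in R141C. At day 6 it read -5.63, not above background, and -4.79 in wild type, and -5.80 and -6.33 in R141C, neither above background. The R141C arrays were both above the wild-type arrays at day 0 and both below them at day 6. The day 0 difference was 1.44 ± 0.57 (SE). R141C at day 0 was the one group with both arrays above background, so Myh11 entered the test through the group where it was highest. At day 6 the difference was -0.86 ± 0.57 (SE), or -0.28 under normexp background correction, with 3 of the 4 readings not above background, so no fold is given.

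Mylk read between -3.58 and -2.65 on all 8 arrays with its brighter probe (A_55_P1997375, chromosome 16, 34953958 to 34954017 on mm9). Its genotype differences were 0.28 ± 0.26 at day 0 and -0.09 ± 0.26 at day 6 (SE), with overlap on both days. A second Mylk probe gave -0.02 and 0.37, and it differed from the first in sign for every comparison, so no direction is given for Mylk. Lmod1 was above background at -5.04 on R141C day 0 replicate 2 and at -4.24 on wild-type day 6 replicate 2, and at -6.74 or below elsewhere.

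Desmin was the contractile member that stood higher at day 6 in both genotypes without overlap. Its probe (A_51_P335969, chromosome 1, 75363404 to 75363629 on mm9, 10 spots per array) read -2.04 and -1.05 in wild type and -1.63 and -1.11 in R141C at day 0. Day 6 gave -0.02 and -0.06 in wild type and -0.28 and 0.68 in R141C. All day 6 arrays were above all day 0 arrays. Des rose 2.83-fold in wild type (log2 difference 1.50 ± 0.44, SE, adjusted p = 0.0499 in limma), and in R141C the difference was 1.57 ± 0.44 (adjusted p = 0.0563). In limma, Des no longer passed in wild type when wild-type day 0 replicate 1 was left out (1.004, adjusted p = 0.193). The same held for either R141C day 0 array (adjusted p = 0.0664 each in limma) and for wild-type day 6 replicate 1 (0.176) or replicate 2 (0.178). Des also did not pass in wild type with quantile normalization, a median shift, the series matrix, only the arrays compared or chromosome medians removed (adjusted p = 0.0513 to 0.0941 in limma).

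**Figure D3:**
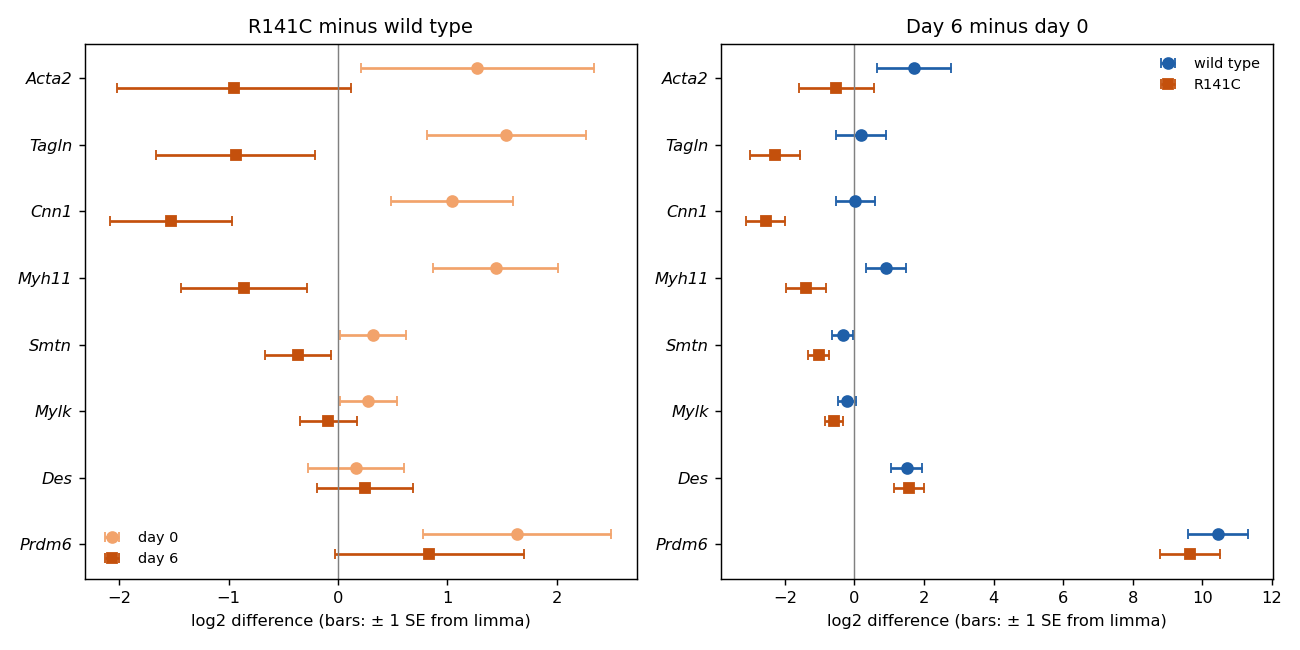
Log2 differences of the 8 tested members with bars of ± 1 SE from limma: R141C minus wild type at day 0 (circles) and day 6 (squares) on the left, and day 6 minus day 0 in wild type (circles) and R141C (squares) on the right. All 8 genotype differences are positive at day 0 and 6 of 8 are negative at day 6, with standard errors of 0.26 to 1.07.

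Taken over the members, R141C minus wild type was positive for 8 of 8 tested at day 0 (median 1.16) and negative for 6 of 8 at day 6 (median -0.61), with Des and Prdm6 as the exceptions and Mylk turning sign with its second probe. Over all genes the medians were 0.00 and 0.07, and 49.4% and 41.9% of the differences were negative. The members were read on the same arrays, so their signs are not independent. No member passed the threshold between genotypes at either day. Over all genes, 0% passed in limma at day 0 and 0.0657% at day 6 (0.027% higher and 0.0386% lower in R141C). Before adjustment, 1 member had p under 0.05 in limma at each day, Myh11 at day 0 and Cnn1 at day 6. Of the 25892 genes tested, 1165 did at day 0 and 2210 at day 6. Myh11 entered the test through R141C at day 0 alone, the group where it was highest, so its p is a description. The 4 members lower in R141C without overlap at day 6 were Tagln, Cnn1, Myh11 and Smtn, where 16.5% of genes were lower in this way. Of these, Myh11 was above background on 1 wild-type array and no R141C array at day 6. Its difference was -0.28 under normexp background correction, so its place in that count is not secure. At day 0 Myh11 alone was higher in R141C without overlap, where 14.5% of genes were.

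Between days, 2 members passed in wild type (Des and Prdm6) and 2 in R141C (Cnn1 and Prdm6), against 24% and 15.6% of all genes. Rises accounted for 11% of genes in wild type and 7.6% in R141C, and falls for 12.9% and 8.04%. Without overlap between days, 3 members were higher and 1 lower at day 6 in wild type (29.8% and 41.5% of all genes), and 2 were higher and 5 lower in R141C (25.6% and 30.4%). The 5 were Tagln, Cnn1, Myh11, Smtn and Mylk. Of these, Myh11 was above background on neither R141C array at day 6. The second Mylk probe went the other way (0.67), so Mylk has no settled direction. Tagln and Des passed in R141C as well when either wild-type day 0 array was left out, and Tagln with only the arrays compared (adjusted p = 0.0431 in limma). The median difference between days was 0.54 in wild type and -0.80 in R141C, against -0.12 and -0.03 over all genes. The genotype effect at day 6 minus that at day 0 was negative for 7 of 8 members (median -1.51, against 0.08 and 42% negative over all genes), led by Cnn1 (-2.57), Tagln (-2.47), Myh11 (-2.30) and Acta2 (-2.23). Mylk is among the 7 with its brighter probe only, and its second probe gave 0.40. None of the 8 members passed here, and 0% of genes did in limma. An unadjusted p under 0.05 was reached by 3 members (Tagln, Cnn1 and Myh11) and by 1461 of the 25892 genes tested. Myh11 was tested only through R141C at day 0, where it was highest, so its p is a description. The day comparisons and the genotype comparisons use the same 8 arrays and are not separate evidence.

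Replicate cultures were far apart at day 0. There, wild-type replicate 2 was the lowest and R141C replicate 2 the highest of the 4 arrays for 7 of the 8 contractile members, Des being the exception. For Myh11 and Lmod1 that order rests in part on readings not above background. That order was counted after the values were seen, and it held for 11.4% of all genes tested. The replicate arrays were apart by a median of 1.16 in wild type and 1.11 in R141C over the tested members at day 0, against 0.30 and 0.32 over all genes. At day 6 the members' medians were 0.41 in both genotypes, against 0.17 and 0.36.

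The mean of the 8 contractile members, each centred on its own mean, was 0.01 and -0.91 in wild type and -0.17 and 1.20 in R141C at day 0. At day 6 it was -0.01 and 0.66 in wild type and -0.57 and -0.20 in R141C. The replicate 1 arrays of the genotypes were thus close at day 0, and both R141C arrays were below both wild-type arrays at day 6. The mean gives equal weight to Myh11 and Lmod1, which were above background on 4 and 2 of the 8 arrays. Lmod1 differed by 3.21 between the wild-type day 6 arrays. The members' median difference at day 0 ran from 0.08 to 1.86 with 1 array left out at a time, and that at day 6 from -0.77 to -0.27.

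The genes most like this mean over the 8 arrays were Tgfb1i1 (Pearson's r 0.983), Filip1l (0.971), Lpp (0.966), Rdh10 (0.960) and Aif1l (0.953), and no other gene with a symbol was above 0.95. Tgfb1i1 (Hic-5) and Lpp encode focal adhesion proteins and are on the list of other smooth muscle genes described next. Since the mean includes readings of Myh11 and Lmod1 not above background, the order of the genes most like it is not resolved. Among the members themselves, r over the arrays ranged from -0.73 to 0.95 for pairs of contractile genes (28 pairs, median 0.50) and from -0.67 to 0.91 for Prdm6 with each contractile gene (median -0.22).

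A further 24 genes of the contractile apparatus, the thin filament and its anchors were compared in the same way, of which 23 were tested (Mustn1 was not). This list too was drawn up with earlier results known. At day 0, R141C minus wild type was positive for 23 of 23 (median 0.87), while 49.4% of all genes were negative. Of the 23, 8, or 34.8%, were higher in R141C without overlap, against 14.5% of all genes. At day 6 the difference was negative for 18 of 23 (median -0.38), against 41.9% of all genes. Of the 23, 10, or 43.5%, were lower without overlap, against 16.5%. Signs of genes read on the same arrays are not independent. None of the 23 passed between genotypes at either day in limma. Myl6 and Csrp1, with the highest mean signals, differed by 0.48 ± 0.22 and 1.03 ± 0.35 at day 0 and by 0.05 ± 0.22 and 0.18 ± 0.35 at day 6 (SE, log2).

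Chosen after its values were seen, Actg2, the enteric smooth muscle gamma-actin, had the widest day 6 difference of that list. It was -0.28 to 0.27 in wild type and -2.97 to -1.47 in R141C at day 6, a difference of -2.22 ± 1.06 (SE). At day 0 it spanned -4.08 to -1.43 in wild type and -2.42 to -0.18 in R141C. The day 6 groups were apart and the day 0 groups overlapped, as for Cnn1.

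The same order of the day 0 cultures, with wild-type replicate 2 lowest and R141C replicate 2 highest, held for 21 of these 23 genes (91.3%). The list's day 0 median was 0.40 without wild-type replicate 2 and 0.31 without R141C replicate 2. Leaving out R141C day 6 replicate 1 brought the day 6 median to -0.09, and leaving out its replicate 2 to -0.66.

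Between days, 3 of the 23 rose and 1 fell in wild type, and 3 fell in R141C, in limma. These are smaller shares than the 24% and 15.6% of all genes that passed in wild type and R141C. By log2 difference, Synpo2 (2.86), Pdlim3 (2.51) and Tpm4 (1.19), which encode proteins of the Z-disc, the actinin-rich anchors and the thin filament, rose in wild type (adjusted p = 0.0329, 0.0222 and 0.0385 in limma). Cav1, the main protein of caveolae, fell at least 1.98-fold in wild type and at least 5.85-fold in R141C (adjusted p = 0.0313 and 0.0416 in limma), with no day 6 array above background. Vcl (vinculin, -1.56) and Pdlim7 (-1.38) fell in R141C (adjusted p = 0.0301 and 0.0242 in limma). Without either wild-type day 6 array none of the 4 calls in wild type was left, and without R141C day 0 replicate 2 or either R141C day 6 array none of the 3 in R141C. Without wild-type day 0 replicate 2, 2 were left in wild type (Pdlim3 and Cav1). In R141C the count was 5 without either wild-type day 0 array and 1 (Pdlim7) without either wild-type day 6 array.

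Relatives of the members, such as the other actins, calponins and non-muscle myosins, gave a mixed picture over 20 tested genes, with 3 passing between days in wild type and 2 in R141C, again below the 24% and 15.6% of all genes. In wild type 3 rose, Actc1 (cardiac alpha-actin, log2 difference 5.73), Smtnl2 (1.64) and Myh10 (a non-muscle myosin heavy chain, 1.58), with adjusted p of 0.0322, 0.0125 and 0.00601 in limma. In R141C Smtnl2 rose (1.84, adjusted p = 0.0125) and Nes, the intermediate filament gene of neural progenitors, fell (-2.49, adjusted p = 0.0137). None of the 20 passed between genotypes.

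Among regulators of the contractile genes, several lineage factors rose between days in both genotypes. Of 19 tested genes around SRF and myocardin, 6 rose and 2 fell in wild type, and 4 rose and 2 fell in R141C, in limma. Of all genes, 11% rose and 12.9% fell in wild type, and 7.6% rose and 8.04% fell in R141C. Foxf1, a forkhead factor of visceral smooth muscle, rose by 8.04 in wild type and 7.38 in R141C on the log2 scale and Gata6 by 7.17 and 5.80 (adjusted p = 0.00129, 0.00264, 0.00045 and 0.00135). Mef2c rose at least 31.1-fold and at least 5.56-fold (adjusted p = 0.00297 and 0.0276). Foxo4 rose in R141C (2.07, adjusted p = 0.00391).

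Myocd, which encodes myocardin, is the coactivator that drives contractile genes in cardiac and smooth muscle. It read -4.60 to -3.44 in wild type and -3.62 to -2.50 in R141C at day 0. Day 6 values were 1.36 to 1.37 in wild type but -3.09 to -0.13 in R141C. Myocd rose in wild type by 5.39 ± 0.94 (SE, log2, adjusted p = 0.00906 in limma). At day 6 its genotypes were apart by -2.97 ± 0.94, which did not pass (adjusted p = 0.456). Srf itself, given here although the rule did not select it, read 2.57 to 2.69 in wild type and 2.73 to 2.80 in R141C at day 6, after 3.12 to 3.38 and 3.57 to 3.58 at day 0, and fell by 0.81 on the log2 scale in R141C (adjusted p = 0.033 in limma).

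Around the phosphorylation of the myosin light chain, 15 genes were tested, of which 3 passed between days in wild type and 4 in R141C (24% and 15.6% of all genes). Prkg1, the cGMP-dependent kinase that relaxes smooth muscle, rose by 4.52 in wild type and 2.02 in R141C on the log2 scale (adjusted p = 0.0017 and 0.0356 in limma). Both subunits of soluble guanylyl cyclase, which makes the cGMP, rose as well: Gucy1a1 by 4.36 and 3.72, and Gucy1b1 by 3.44 and 3.17 (adjusted p = 0.00395, 0.00995, 0.00107 and 0.00213). For Gucy1a1 in wild type, 1 of 2 day 0 arrays was above background, so that difference is imprecise. Dapk3, a kinase acting on the light chain and its phosphatase, fell in R141C (-1.32, adjusted p = 0.0268). No other gene of the 15 passed between days, and none passed between genotypes.

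TGF-beta signalling, a known inducer of contractile genes, contributed 15 tested genes, of which 8 rose and 1 fell in wild type and 5 rose in R141C, in limma. Of all genes, 11% rose and 12.9% fell in wild type, and 7.6% rose in R141C. In wild type the largest rises, as log2 differences, were those of the coreceptor Tgfbr3 (3.46), the inhibitory Smad6 (2.88), the ligand Tgfb2 (2.64) and the effector Smad3 (1.996), with adjusted p of 0.00148, 0.00138, 0.0147 and 0.00977. In R141C they were those of Smad6 (4.40), Tgfbr3 (2.97), the receptor Acvrl1 (2.74) and the ligand Tgfb1 (1.83), with adjusted p of 0.000726, 0.00386, 0.00503 and 0.0162. None of the 15 passed between genotypes.

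Markers of other cells were summed on the same arrays, and such a sum is set mainly by its brightest probes. The summed signal of 10 cardiac muscle markers was 8.51 and 8.86 on the log2 scale in wild type at day 6 and 3.52 and 7.24 in R141C. On those R141C arrays Acta2, Tagln, Lmod1 and Des were also lower on replicate 1 than on replicate 2. Cnn1, Myh11, Smtn and Mylk were not, with replicate 2 minus replicate 1 at -0.29, -0.53, -0.01 and -0.15. Lmod1 and Myh11 were above background on neither of those arrays, so their order there is not resolved. At day 0 the cardiac sum was 4.18 and 2.57 in wild type and 3.72 and 5.30 in R141C, with the arrays in the same order as for Acta2, Tagln, Cnn1, Smtn and Mylk. All 10 cardiac markers were lower in R141C at day 6 by group means (median -3.70), as were 41.9% of all genes. None of the 10 passed in limma, although 7 were at an unadjusted p under 0.05, as were 2210 of the 25892 genes tested.

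From day 0 to day 6, 8 of the 10 cardiac markers rose in wild type and 2 in R141C, against 11% and 7.6% of all genes. Tnnt2, cardiac troponin T, rose by 9.15 and 4.66 on the log2 scale, and Tnni1, the troponin I of early cardiac muscle, by 8.08 and 5.36 (adjusted p = 0.00298, 0.0392, 0.00488 and 0.0272 in limma). The R141C day 6 arrays lay far apart for both, from -0.22 to 3.71 for Tnnt2 and from 0.06 to 3.49 for Tnni1. By group means, 6 of the 10 markers were higher and 4 lower at day 6 in R141C, where 51.9% of all genes were lower.

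The 8 fibroblast markers summed to 5.04 and 3.66 in wild type and 3.55 and 5.67 in R141C at day 0, and to 5.06 and 5.71 and 4.52 and 6.19 at day 6. The 8 skeletal muscle markers summed to 3.74 and 1.38 and 3.55 and 5.08 at day 0, and to 2.59 and 3.10 and 0.72 and 1.82 at day 6. The skeletal sum follows 1 gene, the skeletal alpha-actin Acta1, which read 0.98 to 3.57 in wild type and 3.40 to 5.03 in R141C at day 0, and 2.52 to 3.06 and 0.38 to 1.73 at day 6. Myh3 lay between -3.80 and 0.34, and Myod1, Myog, Myf5, Myf6, Pax7 and Ckm at -4.12 or below on every array, so the sum does not speak for skeletal muscle as a class. On each of these sums wild-type replicate 2 or R141C replicate 1 was lowest and R141C replicate 2 highest at day 0. The order of the day 0 cultures described above held for 4 of the 10 cardiac and 5 of the 8 fibroblast markers. The part of these cells in the differences of the contractile genes was not tested.

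Mural cells, the pericytes and smooth muscle cells of vessels, had 6 of 8 markers tested, of which 2 rose in wild type and 3 in R141C (11% and 7.6% of all genes). Pdgfrb rose by 3.08 in wild type and 2.62 in R141C on the log2 scale (adjusted p = 0.00439 and 0.0112 in limma), and Rgs5 rose at least 178-fold in wild type and by 6.26 in R141C (adjusted p = 0.00145 and 0.00527), the latter imprecise since 1 of 2 day 0 arrays was above background. Anpep rose in R141C (1.30, adjusted p = 0.0294). The summed mural signal was 6.23 to 6.42 at day 0, 6.55 and 6.61 in wild type and 7.03 and 6.73 in R141C at day 6, and none of the 6 passed between genotypes. That sum is in the main the level of Mcam, which read 6.02 to 6.84 over the arrays, while the other markers were at 3.06 or below, with Kcnj8 above background on no array and Abcc9 on 1.

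**Figure D4:**
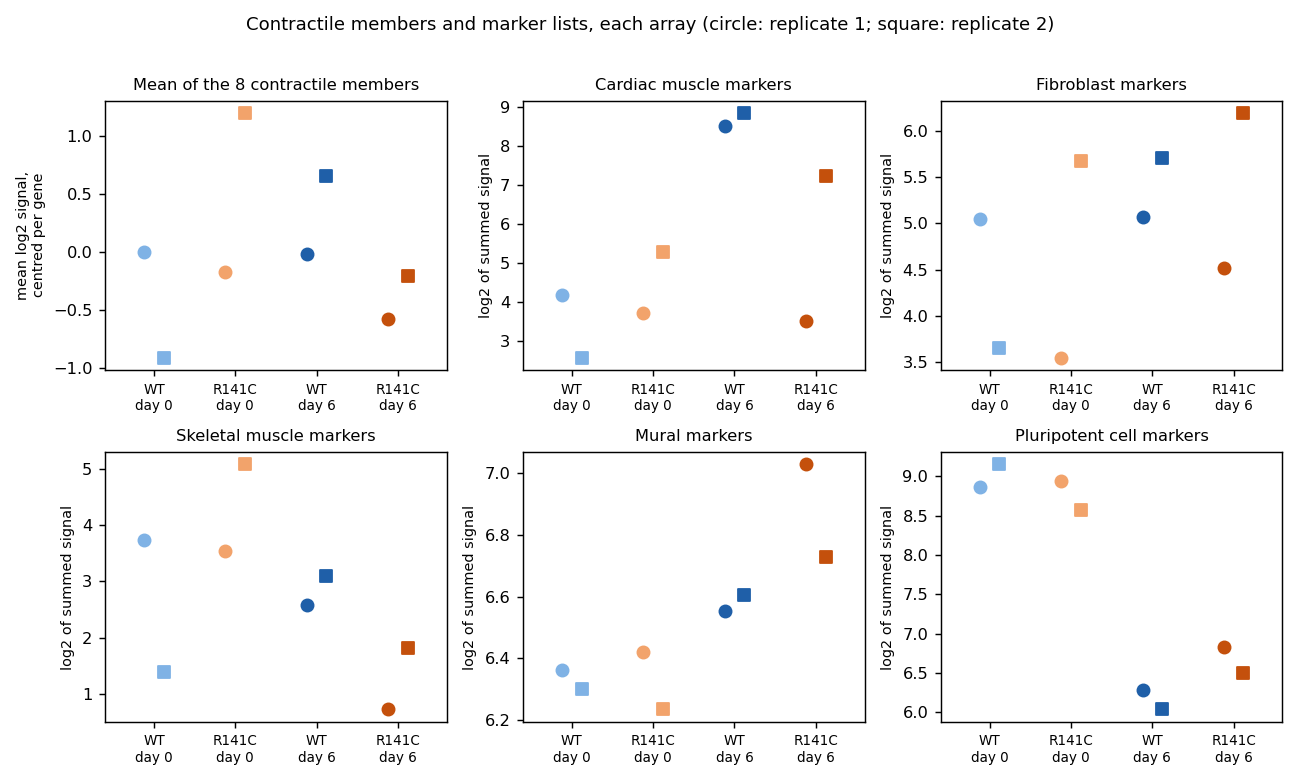
The mean of the 8 contractile members on each array (log2, each gene centred on its own mean) and the log2 of the summed signal of 5 marker lists, by group, with circles for replicate 1 and squares for replicate 2. R141C day 0 replicate 2 is highest for the contractile mean (1.20), and the cardiac sum is 3.52 and 7.24 on the R141C day 6 arrays. The contractile mean includes Myh11 and Lmod1, above background on 4 and 2 of the 8 arrays.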

How the data were processed

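RNA of 8 cultures (4 groups, 2 per group) was labelled with Cy3 and hybridized to single-colour arrays. Per the file headers, the authors' scanner files come from Agilent Feature Extraction 11.5.1.1, whereas the submitters' processing notes give 10.5.1.1. Their processed signal was deposited as a linear intensity from which background within the array had been subtracted. The mean and local background signals are uncorrected intensities as deposited, and the flags that the authors deposited for each spot (other) take the values 0 and 1. A deposited matrix of the whole series gives log2 values, of which 36321 probes were used here (array medians 8.986 to 9.037), whose log2 values follow those of the scanner files at r of 0.9995 to 0.9999 and whose normalization is not given in the sources used here.

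Controls and outlier-flagged spots (131 to 251 of them on an array) were dropped, spots of a probe were averaged and log2 signals were shifted to a 75th percentile of 0. A gene was its probe with the highest mean signal, and entered the test if some group had it well above background on both of its arrays (25892 of 34737 names). Probe positions are the files' own (mm9); exon positions were not analysed here. The test was limma 3.58.1, run in R 4.3.3 (1 model of 4 group means, two-sided, Benjamini-Hochberg over all genes, threshold 0.05), checked on simulated data. "At least" folds raise dim readings to the lowest normalized signal among probes above background on the same array. That signal is not a detection limit, so these folds are bounds on this scale only. Genes given such folds entered the test through the day where they were high. The p-values measure the spread between these cultures, and the number of arrays limits the precision. Deviations of same-numbered arrays from their group means correlated at 0.34 between the R141C days. Every other pair of groups gave -0.14 to 0.08. The main test did not take the numbers as pairs, so it left out this link within R141C. Plots were made in Python 3.11.15 with matplotlib 3.10.9.

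The members and lists were chosen with earlier results of these data known. Named were all members, from each list other than the marker lists the 4 largest changes among passing genes at most (or, with none passing, up to 2 with the highest mean signal), the 5 genes most like Prdm6 and the 5 most like the contractile mean, genes with probes within 1 Mb of Prdm6, and Nkx2-5. Of the marker lists, passing genes were named for mural cells and, in part, for cardiac muscle. Passing fibroblast and skeletal markers were not named, and the endothelium and pluripotent cell lists are not described in the text. Alternatives were quantile and median normalization, normexp with an offset of 50, the series matrix, other filters, eBayes with trend and robust fitting, fits of the compared arrays alone, the mean of a gene's probes, chromosome medians removed, a replicate block and each array left out.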

Additional observations from a re-analysis of the deposited data

Results flagged for a closer look

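Myh11, the smooth muscle myosin heavy chain, was singled out because its genotypes differed in opposite directions at the 2 days without overlap: both R141C arrays were above both wild-type arrays at day 0 and below them at day 6. The genotype effect at day 6 minus that at day 0 was -2.30 ± 0.81 (SE), and this difference did not pass in limma (adjusted p = 0.848). Of the 8 readings, 4 were not well above background, and Myh11 entered the test through R141C at day 0 alone, the group where it was highest. The difference was -0.77 under normexp background correction and -2.97 to -1.63 with 1 array left out at a time.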

How the results depend on the processing

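No genotype difference of a member passed under any alternative, and none of the single differences that passed changed sign. Prdm6 rose between days in both genotypes under all 19 alternatives that tested it; the filter on all 8 arrays left out Prdm6 and Myh11. Members passing between days in wild type numbered 2, and 1 with quantile normalization, with a median shift, with the series matrix, with only the arrays compared and with chromosome medians removed (Prdm6), and 1 with the filter on all 8 arrays (Des). In R141C they numbered 2, and 4 with normexp and with the trend and robust settings, where Smtn and Des were added, 3 with only the arrays compared, where Tagln was added (adjusted p = 0.0431 in limma), and 2 with the filter on all 8 arrays (Cnn1 and Des). Of the 23 other smooth muscle genes, 4 passed between days in wild type and 3 in R141C, and 1 in R141C with only the arrays compared. With 1 array left out at a time, the counts ran from 1 to 2 and 1 to 4 for the members, and from 0 to 5 and 0 to 5 for the other genes; the lone array was taken to vary like the other groups. With the replicate number as a block, the counts were 2 and 3 for members and 4 and 2 for the other genes. At day 0 the same-numbered arrays of the genotypes deviated at -0.14, and with the day 0 numbers crossed, an alternative chosen after seeing the data, the counts were 2, 3, 9 and 5, the 2 in wild type being Acta2 and Prdm6 in place of Des and Prdm6. The single differences of members stayed within the replicate spread in 452 of 462 values and moved in 10, all under normexp or the mean of a gene's probes, and in 302 of 320 with 1 array left out. The interaction was not run with only the arrays compared. Depth on an array is signal over background, which limits Myh11, Lmod1 and Prdm6 at day 0.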
